A study of Mus musculus with 40 samples.

Results

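Phagocytes make superoxide with NADPH oxidase 2, an enzyme complex that is assembled only when the cell is activated. A membrane heterodimer of *Cybb* (gp91phox, the catalytic subunit) and *Cyba* (p22phox, its stabilizing partner) passes electrons from NADPH to oxygen. It becomes active once the cytosolic subunits such as those encoded by *Ncf1* (p47phox, the organizer) and *Ncf4* (p40phox, which binds phosphatidylinositol 3-phosphate) move to the membrane together with a Rac GTPase, in blood cells mostly *Rac2*. The voltage-gated proton channel *Hvcn1* lets out the protons that the oxidase leaves behind. In the brain the complex is known above all from microglia, the resident phagocytes.

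The genes described here are *Cyba*, *Cybb*, *Ncf1*, *Ncf4*, *Rac2* and *Hvcn1*, taken by gene name as 6 of the 43346 genes in the table of counts. All 6 passed the filter on low counts, as did 21253 genes in all. Their levels were examined in cortical RNA from 40 mice, 10 in each of 4 groups with 5 females and 5 males per group. WT mice carried normal *Trem2*, and Hom mice were homozygous for the *Trem2* H157Y substitution, which was introduced by CRISPR/Cas9. The amyloid cohort was 8.5 months old and was hemizygous for 5xFAD, human transgenes that the *Thy1* promoter drives in neurons. Mice of the non-amyloid cohort were without 5xFAD and were 6 months old, so that transgenes and age cannot be told apart between the cohorts. No group received a treatment, and the knock-in results of the study come from the offspring of 1 founder unless it states otherwise.

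The 40 libraries held 41646271 to 105903846 counts assigned to genes (median 77193387). All 8 listed markers of cortical neurons and all 14 of microglia were detected in each group, whereas the neutrophil list summed to at most 2.44 CPM (counts scaled to the effective library size) in 39 libraries and to 25 CPM in non-amyloid WT replicate 24. *Trem2* averaged 10.7 ± 2.13 CPM in non-amyloid WT and 10.4 ± 1.59 in non-amyloid Hom mice, and 62.2 ± 24.4 CPM in amyloid WT and 33.9 ± 10.3 in amyloid Hom mice (SD, n = 10 each). Counts per gene do not separate the edited allele, so that these values do not check the genotype. *Thy1*, whose promoter the transgenes carry, averaged 627 ± 79.9 CPM in non-amyloid WT and 1956 ± 370 CPM in amyloid WT mice. Amyloid Hom replicate 19, a female, stood apart from the rest. It had the lowest total, and genes annotated as antisense took 0.660% of its counts (95% Wilson confidence interval 0.658% to 0.663%, counting error only), against 0.0857% to 0.107% in the other 39 libraries. The values it moved most, those of *Hvcn1* and *Nox1*, are given with and without it.

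*Cyba*, *Cybb* and *Ncf1* had an entry in the RefSeq promoter table, which gives 250 bases before and 50 after the annotated start site, and the other members had none. Only these 3 sequences could therefore be shown. All are from GRCm38.p6, minus strand, 5′ to 3′. Capitals mark matches, on either strand, to the letters GAGGAA (the core bound by the myeloid factor PU.1), to TTCNNNGAA (a STAT-type site) or to GAAA, any 2 bases and GAAA (an interferon-response type of site).

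Cyba, chr8:122432891-122433190: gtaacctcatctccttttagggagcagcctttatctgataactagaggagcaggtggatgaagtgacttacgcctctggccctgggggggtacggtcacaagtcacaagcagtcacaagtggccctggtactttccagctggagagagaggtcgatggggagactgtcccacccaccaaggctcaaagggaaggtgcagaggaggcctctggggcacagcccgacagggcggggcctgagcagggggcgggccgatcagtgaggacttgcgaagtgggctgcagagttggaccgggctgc

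Cybb, chrX:9469275-9469574: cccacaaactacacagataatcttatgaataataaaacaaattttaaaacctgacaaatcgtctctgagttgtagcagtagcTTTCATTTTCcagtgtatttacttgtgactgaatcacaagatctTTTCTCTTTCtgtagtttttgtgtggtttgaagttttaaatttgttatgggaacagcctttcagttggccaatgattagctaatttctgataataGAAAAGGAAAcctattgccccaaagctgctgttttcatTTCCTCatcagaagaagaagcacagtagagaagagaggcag

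Ncf1, chr5:134229576-134229875: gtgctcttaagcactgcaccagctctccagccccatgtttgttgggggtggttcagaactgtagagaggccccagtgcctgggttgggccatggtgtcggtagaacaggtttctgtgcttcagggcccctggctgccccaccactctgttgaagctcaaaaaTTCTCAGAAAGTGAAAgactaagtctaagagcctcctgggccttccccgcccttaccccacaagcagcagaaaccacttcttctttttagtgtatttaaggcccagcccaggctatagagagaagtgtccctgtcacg

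The *Cybb* window held GAGGAA once, at position 9 relative to the start site and on the opposite strand, and the interferon-type letters 3 times, at -168, -124 and -29. The *Ncf1* window held the interferon-type letters once, at -82, overlapping a STAT-type match at -88. The *Cyba* window held no match to any of these. A longer PU.1 core, GAGGAAGT, was in none of the 3 windows. Among the 32851 promoters of the table, 28.3% held GAGGAA, 3.2% GAGGAAGT, 8.3% the STAT-type and 3.44% the interferon-type letters. These matches describe the letters and are not binding sites. The RefSeq start of *Cybb* lies within the gene as the table of counts gives it, not at its outer end.

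All 6 genes were higher in the amyloid than in the non-amyloid cohort, in WT and in Hom mice. Within the amyloid cohort they averaged lower in Hom than in WT mice. The count called for this difference was 0 in the edgeR model without sex. It ran from 0 to 5 of 6 over the other tools, filters, models and left-out libraries. The share of all genes called lower changed too, to 1.91% where 5 members were called. Within the non-amyloid cohort Hom and WT mice differed little. The plot of CPM by mouse shows these values.

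**Figure D1:**
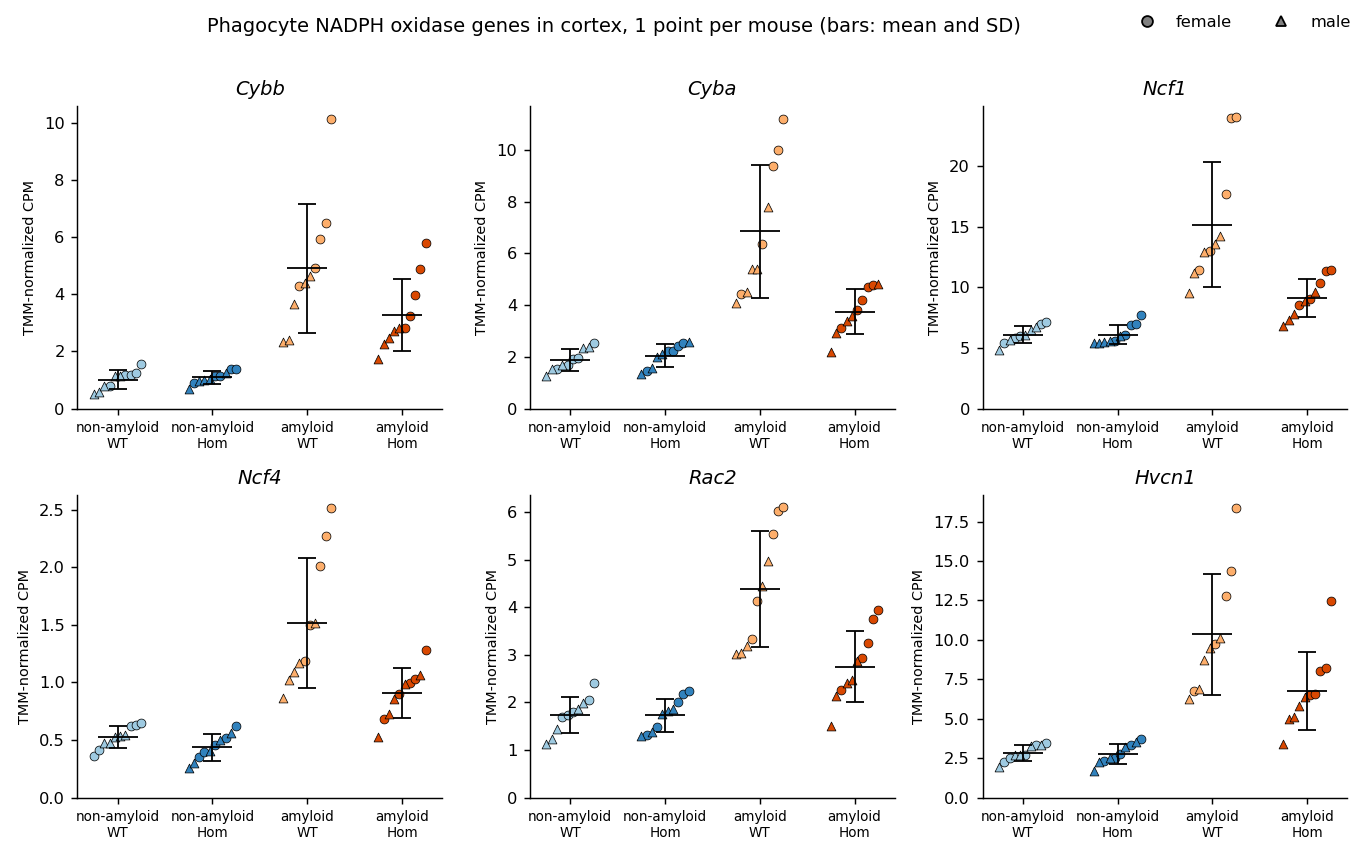
Level of each NADPH oxidase gene in CPM scaled by TMM (vertical axis, starting at 0) in the 4 groups of 10 mice, with circles for females, triangles for males and black bars for the mean and SD. Every amyloid WT mouse lies above every non-amyloid WT mouse for all 6 genes. Amyloid Hom mice average between these groups. They overlap amyloid WT mice for all 6 genes and non-amyloid WT mice for all but *Cybb*.

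*Cybb* (ENSMUSG00000015340, chrX:9435252-9487771, mm10, minus strand) had 1.0 ± 0.334 CPM in non-amyloid WT mice (SD, n = 10; lowest 0.503, median 1.14, highest 1.56). Non-amyloid Hom mice had 1.09 ± 0.222 CPM (0.680, 1.07, 1.4). Amyloid WT mice had 4.91 ± 2.26 CPM (2.31, 4.51, 10.1), and amyloid Hom mice had 3.27 ± 1.26 CPM (1.75, 2.83, 5.79). In both genotypes every amyloid mouse was above every non-amyloid mouse. Within the amyloid cohort the genotypes overlapped widely, with 2 of 10 Hom mice below all WT mice.

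*Cyba* (ENSMUSG00000006519, chr8:122424772-122432940, minus strand) had 1.89 ± 0.422 CPM in non-amyloid WT mice (lowest 1.27, median 1.81, highest 2.54) and 2.04 ± 0.449 CPM in non-amyloid Hom mice (1.33, 2.17, 2.56). The amyloid WT mice had 6.86 ± 2.58 CPM (4.10, 5.88, 11.2) and the amyloid Hom mice 3.75 ± 0.878 CPM (2.18, 3.70, 4.80). In the amyloid cohort, 6 of 10 Hom mice were below all WT mice and 7 of 10 WT mice were above all Hom mice.

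*Ncf1* (ENSMUSG00000015950, chr5:134220053-134229625, minus strand) had the most counts of the members. It stood at 6.09 ± 0.725 CPM in non-amyloid WT mice (lowest 4.79, median 5.99, highest 7.11) and at 6.10 ± 0.804 CPM in non-amyloid Hom mice (5.40, 5.77, 7.68). In amyloid WT mice it was 15.1 ± 5.14 CPM (9.5, 13.3, 24), and in amyloid Hom mice 9.10 ± 1.58 CPM (6.83, 8.94, 11.4). Here too 6 of 10 amyloid Hom mice were below all amyloid WT mice. Of its exonic bases, 11.1% overlap exons of *Gtf2ird2* on the other strand.

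*Ncf4* (ENSMUSG00000071715, chr15:78244801-78262580, plus strand) was the member with the fewest counts, 19 to 198 per library, and its counting error at the lowest count was 22.9%. It had 0.523 ± 0.0955 CPM in non-amyloid WT mice (lowest 0.359, median 0.529, highest 0.648) and 0.437 ± 0.116 CPM in non-amyloid Hom mice (0.261, 0.427, 0.623). Amyloid WT mice had 1.52 ± 0.567 CPM (0.869, 1.35, 2.52) and amyloid Hom mice 0.906 ± 0.217 CPM (0.530, 0.946, 1.28). In the amyloid cohort, 4 of 10 Hom mice were below all WT mice.

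*Rac2* (ENSMUSG00000033220, chr15:78559169-78572783, minus strand) had 1.73 ± 0.386 CPM in non-amyloid WT mice (lowest 1.13, median 1.77, highest 2.40) and 1.74 ± 0.348 CPM in non-amyloid Hom mice (1.30, 1.78, 2.24). It had 4.38 ± 1.23 CPM in amyloid WT mice (3.03, 4.30, 6.12) and 2.75 ± 0.752 CPM in amyloid Hom mice (1.51, 2.67, 3.94). Here 7 of 10 amyloid Hom mice were below all amyloid WT mice, the most for any member. Among males the groups did not overlap, since all 5 Hom males were below all 5 WT males, as in 0.598% of genes.

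*Hvcn1* (ENSMUSG00000064267, chr5:122206804-122242297, plus strand) had 2.83 ± 0.519 CPM in non-amyloid WT mice (lowest 1.91, median 2.71, highest 3.48) and 2.78 ± 0.635 CPM in non-amyloid Hom mice (1.72, 2.63, 3.72). Amyloid WT mice had 10.4 ± 3.83 CPM (6.27, 9.61, 18.4) and amyloid Hom mice 6.75 ± 2.47 CPM (3.40, 6.43, 12.5). The highest amyloid Hom value was that of replicate 19, and without it the group had 6.11 ± 1.52 CPM (n = 9) with a highest value of 8.22. Of the exonic bases of *Hvcn1*, 44.2% overlap exons of *Tctn1* on the other strand, so that reads counted without regard to strand could be shared between them.

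Between genes, levels can be compared only per length. In amyloid WT mice *Cyba* was highest with 9.05 ± 3.40 CPM per kilobase of the gene length that the table gives, followed by *Ncf1* (4.13 ± 1.4), *Hvcn1* (2.91 ± 1.07), *Rac2* (1.44 ± 0.404), *Cybb* (0.845 ± 0.389) and *Ncf4* (0.750 ± 0.281). *Cybb* and *Ncf4* did not differ by more than the SD of either, and *Ncf1* and *Hvcn1* differed by less than the SD of *Ncf1* and more than that of *Hvcn1*. Thus both membrane partners stood far apart on this scale. In non-amyloid WT mice *Cyba* had 2.49 ± 0.556 CPM per kilobase and *Cybb* 0.173 ± 0.0575, below *Ncf4* with 0.259 ± 0.0473. The gap depends on the length used, since the mean annotated *Cybb* transcript is much shorter than its full set of exons (1486 against 5808 bases). With mean transcript lengths, *Cyba* was at 9.97, *Cybb* at 3.30 and *Ncf4* at 1.83 CPM per kilobase in amyloid WT mice. In non-amyloid WT mice the order of the last 2 then turned, with *Cybb* at 0.676 ± 0.225 and *Ncf4* at 0.630 ± 0.115.

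**Figure D2:**
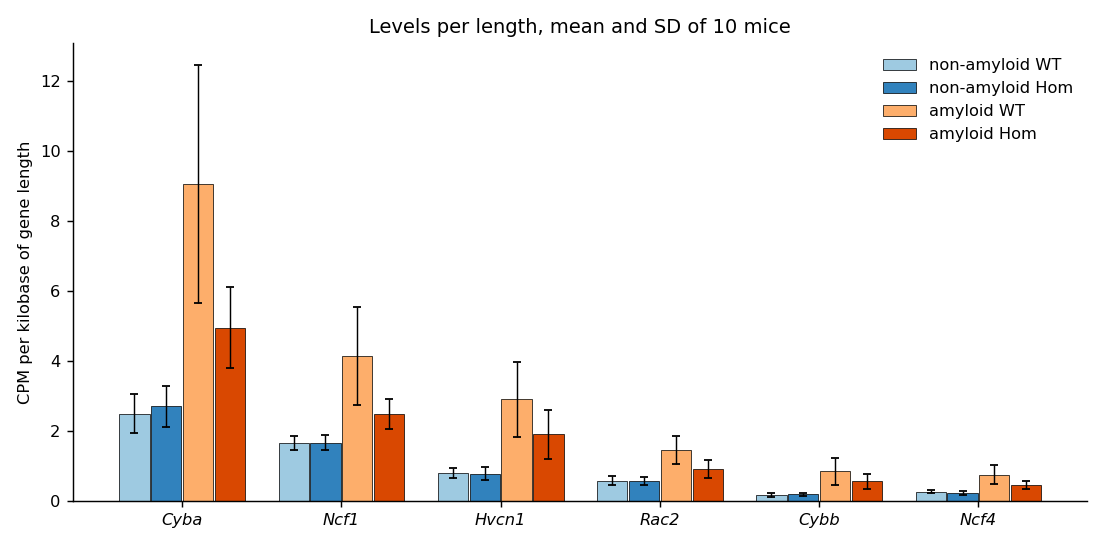
Mean level of each gene in CPM per kilobase of gene length (vertical axis, starting at 0), with SD over 10 mice as error bars, in the 4 groups. *Cyba* is highest and *Cybb* and *Ncf4* lowest in amyloid WT mice, at 9.05, 0.845 and 0.750 CPM per kilobase.

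The first comparison was between the cohorts, which differ in the 5xFAD transgenes and in age. In WT mice the log2 fold change, amyloid minus non-amyloid, was largest for *Cybb* at 2.29 (SE 0.23) and smallest for *Ncf1* at 1.31 (SE 0.13). *Hvcn1* rose by 1.87 (SE 0.19), *Cyba* by 1.86 (SE 0.18), *Ncf4* by 1.53 (SE 0.18) and *Rac2* by 1.34 (SE 0.16). A gene was called where edgeR's quasi-likelihood test gave a Benjamini-Hochberg adjusted p under 0.05 over all genes tested and the absolute log2 fold change was over 0.25. All 6 members were called higher, with adjusted p from 5.86e-11 for *Cyba* to 2.07e-08 for *Rac2*, where 7.95% of all genes tested were called and 6.62% were called higher. For all 6 there was no overlap between amyloid and non-amyloid WT mice, which held for 1.95% of genes.

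In Hom mice the same 6 genes were called higher in the amyloid cohort, where 6.56% of genes were called and 5.71% were called higher. The log2 fold changes were 1.59 (SE 0.22) for *Cybb*, 1.28 (SE 0.18) for *Hvcn1*, 1.04 (SE 0.18) for *Ncf4*, 0.87 (SE 0.17) for *Cyba*, 0.67 (SE 0.16) for *Rac2* and 0.58 (SE 0.13) for *Ncf1*. *Cybb* was again the largest and *Ncf1* the smallest. Their adjusted p ran from 2.6e-06 for *Cybb* to 0.00505 for *Rac2* (edgeR). Only *Cybb* separated all amyloid from all non-amyloid Hom mice, as 0.875% of genes did. For the other 5 members 1 or 2 amyloid mice were not above all non-amyloid mice. Of 10 non-amyloid mice, 4 (*Rac2*), 5 (*Cyba*), 7 (*Ncf1*) and 8 (*Ncf4* and *Hvcn1*) lay below all amyloid mice. In bulk RNA, more cells of a type and more RNA per cell cannot be told apart.

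The genotype was compared within each cohort, to see whether *Trem2* H157Y changed these levels with and without amyloid. In amyloid mice the log2 fold change, Hom minus WT, was -0.87 (SE 0.19, adjusted p = 0.0554) for *Cyba* and -0.73 (SE 0.16, adjusted p = 0.0554) for *Ncf1*. It was -0.74 (SE 0.20, adjusted p = 0.0956) for *Ncf4*, -0.67 (SE 0.17, adjusted p = 0.0846) for *Rac2*, -0.62 (SE 0.21, adjusted p = 0.228) for *Hvcn1* and -0.59 (SE 0.24, adjusted p = 0.399) for *Cybb*. By edgeR 0 of 6 members were called, where 0.0753% of genes were called, and 6 of 6 were lower in Hom mice with an unadjusted p under 0.05, which 5.77% of genes were. The median over the members was -0.70 against 0.00 over all genes tested. In limma-voom with sample quality weights 0 of 6 were called (0.0894% of genes called lower), and in DESeq2 4 of 6 (1.33% of genes), the exceptions being *Cybb* and *Hvcn1*. Of 8 markers of border-associated macrophages 8 were lower in amyloid Hom mice (median -0.28), 3 with an unadjusted p under 0.05 and 0 called by edgeR, and they summed to 25.2 to 42.9 CPM in amyloid WT and 22.3 to 34.1 CPM in amyloid Hom mice. The 4 tested neutrophil markers were lower too, none with an unadjusted p under 0.05. Their part in the difference was not tested.

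With sex as a covariate in the edgeR model, 4 of 6 members were called lower in amyloid Hom mice, where 1.14% of genes were. These were *Ncf1* (log2 fold change -0.72, SE 0.13, adjusted p = 0.0061), *Cyba* (-0.85, SE 0.17, adjusted p = 0.012), *Rac2* (-0.68, SE 0.14, adjusted p = 0.0184) and *Ncf4* (-0.70, SE 0.17, adjusted p = 0.046). *Hvcn1* (-0.63, SE 0.16, adjusted p = 0.0602) and *Cybb* (-0.58, SE 0.17, adjusted p = 0.141) were not. When replicate 19 was left out as well, *Hvcn1* was called (-0.72, SE 0.15, adjusted p = 0.0213) and *Ncf4* was not (adjusted p = 0.0675), so that again 4 of 6 were, where 0.932% of genes were called lower. Without sex in the model and without replicate 19, *Hvcn1* had a log2 fold change of -0.76 (adjusted p = 0.116). Leaving out amyloid WT replicate 13, a male with low values of most members, gave 4 calls (*Cyba*, *Ncf1*, *Ncf4* and *Rac2*) in the model without sex, where the genes called lower rose to 0.913% of all.

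In non-amyloid mice the log2 fold changes ran from -0.25 (SE 0.16) for *Ncf4* to 0.12 (SE 0.18) for *Cybb*. By edgeR 0 of 6 members were called and 0 of 6 had an unadjusted p under 0.05, where 0.0329% of genes were called. DESeq2 and limma-voom also called 0 of 6. *Rac2* (SE 0.14) and *Ncf1* (SE 0.08) were both at 0.00. Neutrophils also carry this oxidase, and the 4 tested neutrophil markers were lower in non-amyloid Hom mice with a median of -2.88, all with an unadjusted p under 0.05 and none called by edgeR. Their high values were in WT replicate 24, and without it edgeR again called 0 of 6 members, with differences of -0.22 to 0.15.

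The interaction tests whether the genotype difference itself differed between the cohorts. It was negative for all 6 members, from -0.99 (SE 0.24, adjusted p = 0.111) for *Cyba* and -0.74 (SE 0.18, adjusted p = 0.111) for *Ncf1* to -0.49 (SE 0.26, adjusted p = 0.497) for *Ncf4*. *Cybb* was at -0.70 (SE 0.31), *Rac2* at -0.67 (SE 0.22) and *Hvcn1* at -0.59 (SE 0.26). By edgeR 0 of 6 members were called, as 0% of all genes were, and 5 of 6, all but *Ncf4*, had an unadjusted p under 0.05 and a negative sign, as 5.54% of genes did. DESeq2 called *Cyba* and *Ncf1* (adjusted p = 0.0491 for both; 0.122% of genes called lower), and limma-voom called 0 of 6. Without amyloid WT replicate 13 edgeR called *Ncf1* (adjusted p = 0.0437), where 0.0988% of genes were called lower.

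**Figure D3:**
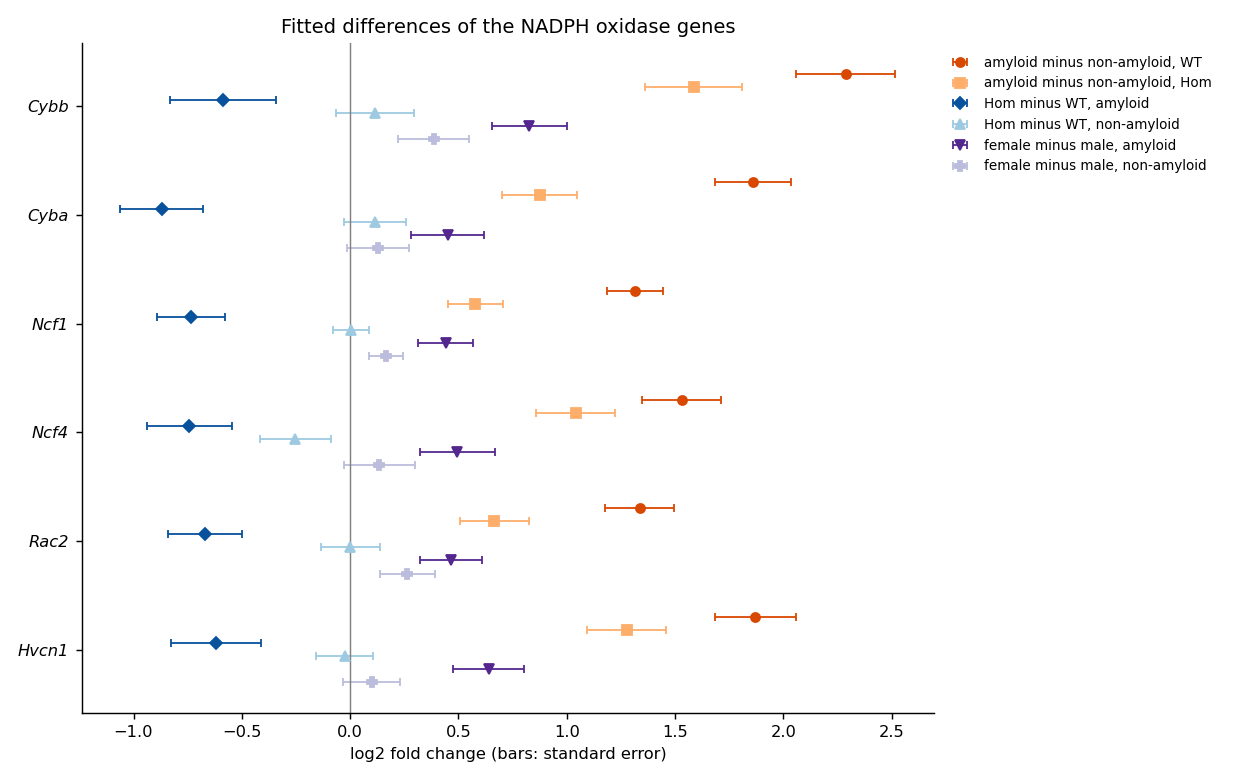
Fitted log2 fold change of each gene (horizontal axis) with its standard error, for 6 comparisons of cohort, genotype and sex. *Cybb* has the largest amyloid minus non-amyloid difference in WT mice (2.29), and Hom minus WT lies between -0.87 and -0.59 in the amyloid and between -0.25 and 0.12 in the non-amyloid cohort.

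Between the sexes, edgeR called *Cybb*, which is X-linked, higher in amyloid females than amyloid males, and no other member in either cohort. In amyloid WT females its values were 4.28, 4.91, 5.92, 6.48 and 10.1 CPM, and in amyloid WT males 2.31, 2.40, 3.65, 4.39 and 4.63 CPM. Hom females had 2.83, 3.24, 3.96, 4.89 and 5.79 CPM, and Hom males 1.75, 2.24, 2.47, 2.71 and 2.83 CPM. In Hom mice every female was above every male, although the lowest female and the highest male both round to 2.83 CPM. Of all genes, 0.508% separated these mice in this direction. In WT mice 2 males overlapped the females.

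The log2 difference, female minus male with genotype in the model, was 0.83 for *Cybb* (SE 0.17, adjusted p = 0.043). It was 0.64 for *Hvcn1* (SE 0.16, adjusted p = 0.0997; 0.55 without replicate 19), and from 0.44 (*Ncf1*) to 0.50 (*Ncf4*) for the other 4. Only *Cybb* was called, where 0.24% of genes were. Its call was lost without the filter on low counts (adjusted p = 0.0827), and DESeq2 also called *Hvcn1* (adjusted p = 0.0153; 1.08% of genes called higher). Without replicate 19 *Cybb* was at 0.86 (adjusted p = 0.0272). In the non-amyloid cohort the differences were 0.10 (*Hvcn1*) to 0.38 (*Cybb*), with 0 of 6 called by edgeR, DESeq2 or limma-voom, 2 of 6 with an unadjusted p under 0.05 and 0.118% of genes called. Whether the sex difference differed between the cohorts was not tested. Of the 14 microglial markers, 14 were higher in amyloid females with a median difference of 0.38. By edgeR 12 had an unadjusted p under 0.05, and 3 were called. Their part in the sex difference of the members was not tested.

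Within each sex of the amyloid cohort, the ratio of Hom to WT means was 0.498 in females and 0.621 in males for *Cyba*, and 0.517 and 0.735 for *Ncf4*. For *Ncf1* it was 0.563 and 0.658, for *Rac2* 0.642 and 0.610, for *Cybb* 0.653 and 0.690, and for *Hvcn1* 0.675 and 0.617. The interaction of genotype and sex was called for 0 of 6 members by edgeR, DESeq2 and limma-voom, with 0 of 6 at an unadjusted p under 0.05, and for 0% of all genes. The fitted interactions ran from -0.51 (SE 0.33) for *Ncf4* to 0.12 (SE 0.33) for *Hvcn1*.

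The members were also set against other microglial RNA. The mean log2 CPM of the 14 microglial marker genes was 4.50 ± 0.159 in non-amyloid WT, 4.47 ± 0.110 in non-amyloid Hom, 5.68 ± 0.310 in amyloid WT and 5.19 ± 0.280 in amyloid Hom mice. Summed, they ran from 726 to 1569 CPM in amyloid WT and from 600 to 1044 CPM in amyloid Hom mice. In the amyloid cohort 14 of these 14 markers were lower in Hom mice (median -0.51), 12 with an unadjusted p under 0.05 and 0 called by edgeR. Over all genes, 5.77% were lower with such a p and 0.0753% were called. Subtracting this mean from the log2 CPM of a member gives its level relative to these markers.

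Relative to the markers, the members differed between the cohorts by unequal amounts. In WT mice, amyloid minus non-amyloid, *Cybb* differed by 1.04, *Hvcn1* by 0.63 and *Cyba* by 0.62, whereas *Ncf4* differed by 0.25, *Rac2* by 0.13 and *Ncf1* by 0.08. The last 3 are smaller than the SD over single amyloid WT mice, 0.358, 0.275 and 0.268. In Hom mice *Cybb* differed by 0.78 and *Hvcn1* by 0.51, while *Ncf4* was at 0.29, *Cyba* at 0.14, *Rac2* at -0.09 and *Ncf1* at -0.15. Between the amyloid genotypes the relative difference, Hom minus WT, was -0.33 for *Cyba*, -0.20 for *Ncf1*, -0.19 for *Ncf4*, -0.18 for *Rac2*, -0.13 for *Hvcn1* and -0.06 for *Cybb*. All 6 are smaller than the SD over amyloid WT mice, which ran from 0.268 (*Ncf1*) to 0.410 (*Cyba*), whereas those of *Cyba* and *Ncf1* exceed the SD over amyloid Hom mice (0.213 and 0.159). These SDs give the spread of single mice and not the error of a difference between means, so they do not show whether the groups differ. No test was run on these ratios.

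**Figure D4:**
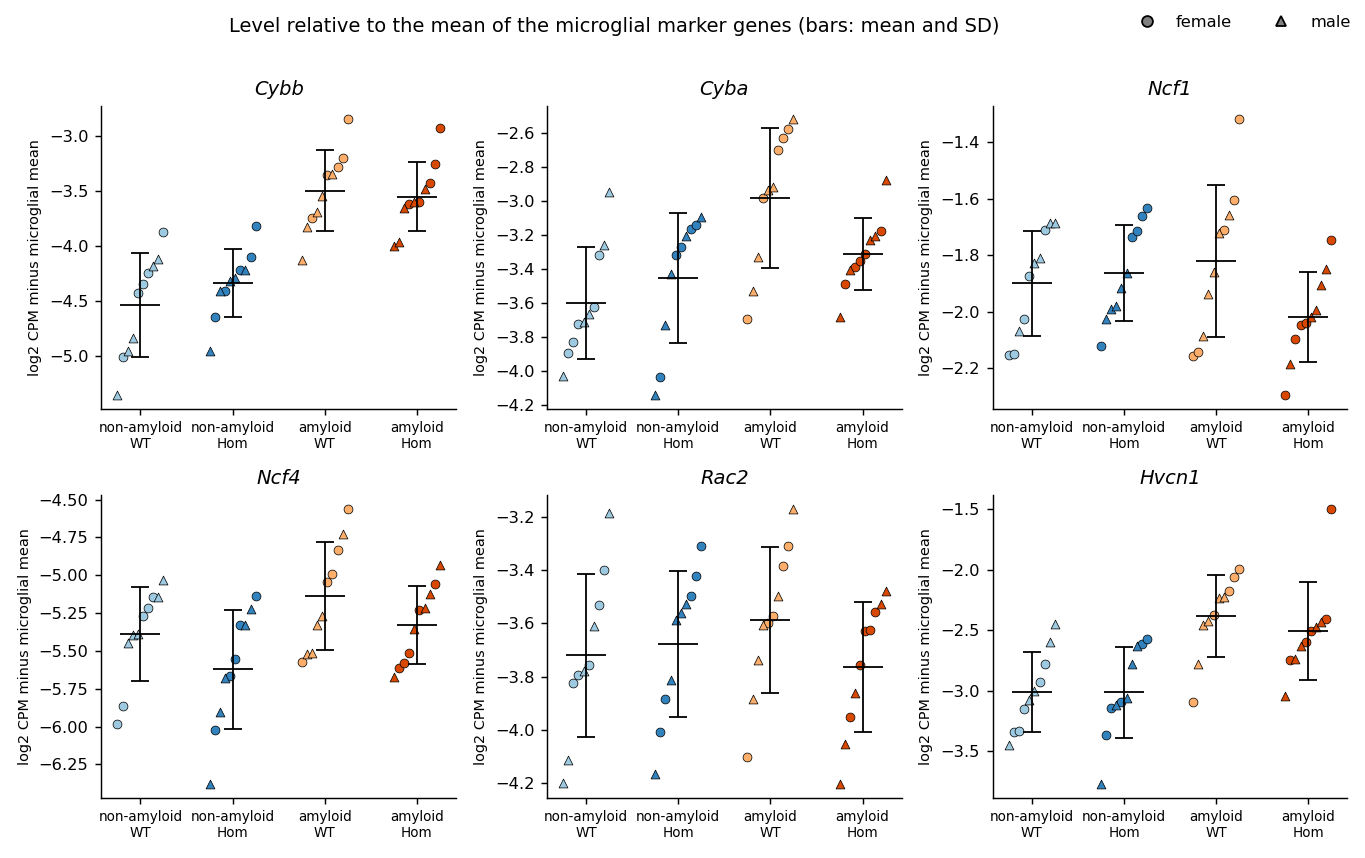
Log2 CPM of each gene minus the mean log2 CPM of 14 microglial marker genes (vertical axis), by mouse in the 4 groups, with circles for females, triangles for males and bars for the mean and SD. *Cybb* is higher relative to the markers in both amyloid groups, by 1.04 in WT and 0.78 in Hom mice, while *Ncf1* differs by 0.08 and -0.15.

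After the mean of each group of cohort, genotype and sex was subtracted, the members still varied together to differing extents across the 40 libraries. The 15 pairwise Pearson correlations of log2 CPM ran from 0.12 to 0.80 with a median of 0.48. *Cyba* and *Rac2* were most alike (0.80), followed by *Cyba* and *Hvcn1* (0.68). *Cybb* was the least like the rest, at 0.12 with *Cyba*, its partner in the membrane, and at most 0.29 with any member. Among all other genes tested, those most like the mean of the members were *Trem2* (r = 0.87), *Axl*, a phagocytic receptor kinase (0.84), *H2-D1*, a class I antigen-presenting molecule (0.84), *Itgb2*, the shared chain of leukocyte integrins (0.84), and *Unc93b1*, which carries Toll-like receptors to endosomes (0.84). These are descriptions over 40 libraries that share depth and microglial content within each mouse. In the amyloid cohort the Hom minus WT difference was -0.87 (SE 0.21, adjusted p = 0.0763) for *Trem2* and -0.80 (SE 0.17, adjusted p = 0.0554) for *Itgb2*. It was -0.64 (adjusted p = 0.228) for *H2-D1*, -0.52 (adjusted p = 0.12) for *Unc93b1* and -0.35 (adjusted p = 0.113) for *Axl*.

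Of the 25 tested partners, activators and regulators of the oxidase, 13 were called higher in amyloid than in non-amyloid WT mice (6.62% of all genes) and 0 lower. They included *Cd14*, a lipopolysaccharide co-receptor (2.11, SE 0.17), the Rac exchange factors *Dock2* (1.51, SE 0.12) and *Vav1* (1.47, SE 0.13), and *Pik3cg*, the catalytic chain of phosphoinositide 3-kinase gamma (1.17, SE 0.12). *Rhoh* (1.22), *Prkcd* (0.80), *Pik3r6* (0.70), *Pik3r5* (0.61), *Arhgdib* (0.56), *Pla2g4a* (0.53), *Vav2* (0.35) and *Sh3pxd2b* (0.30) were also called. The spread of *Pik3r6* was wide in amyloid WT mice (6.74 ± 4.46 CPM, against 4.14 ± 0.612 CPM in non-amyloid WT mice, SD). In Hom mice 8 were called higher (5.71% of all genes), among them *Cd14* (1.58), *Dock2* (0.99), *Vav1* (0.82), *Pik3cg* (0.80), *Rhoh* (0.73), *Prkcd* (0.63) and *Pla2g4a* (0.56).

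Between the amyloid genotypes 19 of these 25 genes were lower in Hom mice and 12 were lower with an unadjusted p under 0.05 (5.77% of all genes; 11 without replicate 19), with a median log2 fold change of -0.19. By edgeR 0 were called, by limma-voom 0, and by DESeq2 6, all lower (1.33% of all genes). Among the lowest values were -0.74 (SE 0.24) for *Pik3r6*, a regulator of phosphoinositide 3-kinase gamma, -0.63 (SE 0.18) for *Cd14*, -0.60 (SE 0.15) for *Vav1*, -0.59 (SE 0.16) for *Rhoh*, a GTPase of blood cells, and -0.58 (SE 0.15) for *Dock2*. *Pik3cg* (-0.44), *Pik3r5* (-0.42), *Prex1* (-0.40), *Arhgdib* (-0.37), *Pla2g4a* (-0.20) and BC017643 (-0.11) were also below that p. For *Pik3r6* and *Prex1* the amyloid WT values were widely spread. *Pik3r6* had 6.74 ± 4.46 CPM in amyloid WT and 4.02 ± 0.485 CPM in amyloid Hom mice (SD). *Prex1* had 125 ± 51.7 and 94.8 ± 13.5 CPM. In amyloid females edgeR called 3 of these 25 genes higher than in males, where 0.24% of all genes were called. Among them were *Dock2* (0.50, adjusted p = 0.043) and *Pik3cg* (0.47, adjusted p = 0.021). DESeq2 called 4 higher and limma-voom 3.

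The other NADPH oxidase family genes were low, and 0 of 8 tested were called between the amyloid genotypes by edgeR, DESeq2 or limma-voom. *Nox4*, an oxidase that is active without cytosolic subunits, had 0.154 ± 0.129 CPM in non-amyloid WT, 0.147 ± 0.0576 in non-amyloid Hom, 0.243 ± 0.114 in amyloid WT and 0.248 ± 0.131 in amyloid Hom mice. *Nox1*, the closest relative of *Cybb* in the gut, had 0.222 ± 0.102 CPM in amyloid WT mice. In amyloid Hom mice its value was 14.2 CPM in replicate 19 and at most 0.366 CPM in the other 9. *Nox1* was called higher in amyloid than non-amyloid Hom mice (2.90, SE 0.68, adjusted p = 0.00381), and without replicate 19 the difference was 0.13 (SE 0.30, adjusted p = 0.85). Hom minus WT in the amyloid cohort was 2.83 (SE 0.88, adjusted p = 0.169) with that library and 0.05 (SE 0.33) without it.

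Of 26 genes of antioxidant defence, 3 were called higher in amyloid than non-amyloid WT mice, a share not far from the 6.62% of all genes. These were *Hmox1*, heme oxygenase 1 (1.05, SE 0.15), *Nfe2l2*, the transcription factor NRF2 (0.53, SE 0.09), and *Prdx6*, a peroxiredoxin (0.32, SE 0.07). In Hom mice *Hmox1* (0.51), *Nfe2l2* (0.41) and *Slc7a11*, the cystine transporter (0.30), were called higher (5.71% of all genes), and without replicate 19 *Slc7a11* was not (adjusted p = 0.063). Between the amyloid genotypes 0 of 26 were called by edgeR, DESeq2 or limma-voom, the median was -0.04, and 2 were lower with an unadjusted p under 0.05, near the 5.77% of all genes, *Hmox1* at -0.52 (SE 0.19) and *Prdx6* at -0.21 (SE 0.09).

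*Ncf4* and *Rac2* lie on chromosome 15 with start sites 328 kb apart. Of the 14 genes listed with a start between them, 10 were tested. The neighbours of *Ncf4*, *Csf2rb2* and *Csf2rb*, encode beta chains of cytokine receptors (interleukin 3, and interleukin 3, interleukin 5 and GM-CSF). *Csf2rb2* had 1.98 CPM in amyloid WT and 1.07 CPM in amyloid Hom mice on average and was called (-0.89, SE 0.14, adjusted p = 0.00771). *Csf2rb* had 3.84 and 2.20 CPM and was not (-0.80, SE 0.18, adjusted p = 0.0554). These genes are closely similar copies, so that the split of reads between them is uncertain. Both were also called higher in amyloid than in non-amyloid WT mice (1.49, SE 0.17, and 1.84, SE 0.17). The remaining 8 tested genes ran from -0.29 (*C1qtnf6*) to 0.16 (*Il2rb*) between the amyloid genotypes and from -0.48 (*Tmprss6*) to 0.44 (Gm6723) between the cohorts in WT mice, with 0 called by edgeR. Of these 8, 1 gene, *C1qtnf6*, had an unadjusted p under 0.05 between the amyloid genotypes, and none between the cohorts. *Tst* and *Mpst*, sulfur-transfer enzymes, were at 0.10 (SE 0.15) and 0.00 (SE 0.11) between the cohorts, *Kctd17* at -0.20 (SE 0.10) and *Sstr3*, a somatostatin receptor, at 0.15 (SE 0.12).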

How the data were processed

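Cortical poly-A RNA of 40 mice was sequenced on an Illumina NovaSeq. The deposited values are raw counts per gene made by the authors on mm10. The paper names TopHat and Bowtie within MAP-RSeq and featureCounts, the submitters' processing notes name STAR 2.5.2b and featureCounts 1.5.1, and the strand setting is not given in the sources used here. The study's own analysis dropped 1 unnamed female of the amyloid Hom group, because of a low percentage of gene counts and its strand check. All 10 mice were kept here. Replicate 19, a female of that group, had the lowest total and the highest antisense share. Whether it is the dropped mouse is not stated, and the main means and tests include it. Groups came from the labels. *Xist* was at least 278 CPM in every mouse labelled female and at most 0.413 CPM in every mouse labelled male. *Ddx3y* was at least 67.9 CPM in every male and at most 0.222 CPM in the females of the other groups than amyloid Hom. Amyloid Hom replicate 3, a female, had 3.04 CPM of *Ddx3y*, and the source of these counts was not tested. The paper counts its replicates as mice. No pair of replicates was the same library counted again (chi-square per gene of at least 13.7 over 180 pairs), which cannot by itself show separate mice.

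Genes reaching 10 counts in 4 or more of the 40 libraries were tested (21253), scaled by TMM and compared by the quasi-likelihood test of edgeR 4.0.16 in R 4.3.3, with Benjamini-Hochberg adjustment over all genes. CPM values were computed from the counts. Genotype was fitted within a cohort without covariates, sex with genotype, and cohorts and interactions in 1 fit. Log2 CPM for ratios and correlations used a prior count of 2. The test was checked on simulated counts. Alternatives were DESeq2 1.42.0, limma-voom 3.58.1, other normalizations, filters and lengths, sex as a covariate and 1 fit. For the comparisons of genotype and cohort and for their interaction, each library was also left out in turn. In the sex comparison and the interaction of genotype and sex of the amyloid cohort only replicate 19 was left out. In the non-amyloid sex comparison no library was. Gene positions came from GENCODE vM21, and promoters from RefSeq. Named genes were the members, listed pathway genes that were called or had an unadjusted p under 0.05 between the amyloid genotypes, *Nox1*, *Nox4*, the 5 genes most like the members, the genes between *Ncf4* and *Rac2*, and *Trem2* and *Thy1*. The members and lists were chosen with earlier results of these data known, and the motifs without a list fixed beforehand. Some items of the series are not reported here.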

Additional observations from a re-analysis of the deposited data

Results flagged for a closer look

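The highest amyloid Hom value of *Hvcn1*, 12.5 CPM in replicate 19, stood further from the next value (8.22 CPM) than Dixon's 95% limit allows for 10 samples (gap over range 0.470). The highest amyloid Hom value of *Nox1*, 14.2 CPM, was in the same library, with the next at 0.366 CPM (0.979). The highest amyloid Hom value of *Nox4*, 0.567 CPM in replicate 30, was flagged too (next value 0.345 CPM, 0.490). In all, 36 groups of values were examined, and chance flags about 1 in 20. In replicate 19 the share of counts on antisense genes was 0.660%, and the part of this in the values of *Hvcn1* and *Nox1* was not tested.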

How the results depend on the processing

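The calls between the cohorts held for 6 of 6 members in both genotypes under every alternative run, each library left out included. Between the amyloid genotypes all 6 members stayed lower in Hom mice in every alternative, while the count called moved from 0 to 4 in DESeq2, 4 with sex as a covariate, 4 with sex and without replicate 19 (chosen after seeing the data), 5 in 1 fit of all 40 libraries (1.91% of genes called lower) and 2 with filterByExpr (0.307%). It ran from 0 to 4 when 1 library was left out. Without amyloid WT replicate 13 it was 4 (0.913% of genes called lower). It was 2 each without amyloid WT replicates 9 and 22 and amyloid Hom replicate 3. There 55, 90 and 60 of 21253 genes were called lower. The count of called interactions was 2 in DESeq2 and 0 to 1 with 1 library left out. The count called between the sexes of the amyloid cohort was 2 in DESeq2 and 0 without a filter on low counts. Replicate 19 was the only library left out there, and the count stayed at 1. The cause of the changes in these counts was not tested. No non-amyloid genotype alternative gave a call. There, differences near 0 changed sign, for *Ncf1* to -0.0036 (upper quartile), -0.0035 (library size alone) and -0.0018 (sex), for *Rac2* to -0.0080, -0.0080 and, without a filter, -0.00085, and for *Hvcn1* to 0.010 (limma-voom). With 1 library left out they ran from -0.040 to 0.030 (*Ncf1*), -0.054 to 0.064 (*Rac2*) and -0.080 to 0.035 (*Hvcn1*). The interaction of genotype and sex for *Hvcn1* became -0.0013 (limma-voom) and -0.062 (without replicate 19). The ratio of the highest to the lowest level per length was 12.1 and became 5.46 with mean transcript lengths. The median difference relative to microglial markers was -0.19, -0.16 with 4 markers and -0.21 without replicate 19. The paper describes the genotypes as littermate cohorts, but the labels used here give no litter, so litter could not be modelled. The replicate numbers, 1 to 40, are not shared between groups and give no pairs either. Depth limits *Ncf4* most, and *Nox1* and *Nox4* lie near the filter.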
